A study of Homo sapiens with 18 samples.

Results

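The control state of MDA-MB-231 cells was described from 6 of the 18 RNA-seq libraries of the study, those labelled siCtrl and numbered 1 to 6 as biological replicates. MDA-MB-231 is an established human breast cancer line of the triple-negative class, grown here in L-15 medium with 15% serum. The control cells were wild type and received a control siRNA by lipofection 72 h before RNA was taken; the sources used here do not name its target. Each library was built from 500 ng of total RNA. The other 12 libraries, in which RagC was silenced with 2 siRNAs (siRagC1 and siRagC2, 6 libraries each), were not used, and no comparison between treatments was made. All libraries come from 1 line, and the labels do not say how the replicate cultures were separated.

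Triple-negative breast cancers lack the oestrogen and progesterone receptors and amplification of the receptor kinase gene ERBB2. MDA-MB-231 is widely used as a mesenchymal, invasive example of the class, and it is known to have lost CDKN2A. mTORC1 is the growth-controlling kinase complex that nutrients recruit to the lysosome surface. Recruitment runs through Rag GTPases, which work as pairs of RagA or RagB with RagC or RagD, and through Ragulator, their anchor on the lysosomal membrane. The MiT/TFE transcription factors are phosphorylated at the same surface and drive genes of lysosome formation, so the levels of both groups define the setting in which RagC was silenced.

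The 6 libraries held 18.95 M to 44.3 M counts (M, 1e+06), with a median of 21.4 M. Levels are CPM, counts per 1e+06 counts of a library, scaled with TMM factors, which lay between 0.960 and 1.025. Where 3 CPM values follow a gene they are the lowest, the median and the highest of the 6 libraries, and a ± is an SD over n = 6 libraries. Library codes divide the controls into series D1103 (replicates 1 and 2) and D1221 (replicates 3 to 6), and the labels do not explain these codes. The D1103 libraries were the deepest, at 29.5 M and 44.3 M counts against 18.95 M to 21.6 M, so depth and series cannot be told apart. Replicate 6 stood apart from the rest. Its Pearson correlation on log2(CPM + 1) with replicates 3 to 5 was 0.990 to 0.992, whereas those 3 correlated with each other at 0.997 to 0.998. Among 10838 genes with a mean of 5 CPM or more, its median absolute difference from the mean of replicates 3 to 5 was 0.17 on the log2 scale, against 0.06 for replicate 3 from the mean of replicates 4 and 5. The difference moved with base composition. The 2710 genes of lowest GC content (up to 42.7%) were higher in replicate 6 by a median of 0.17 on that scale, and the 2710 of highest GC content (from 56.5%) had a median of -0.36. The part of base composition in the values of replicate 6 was not tested, and named calls between libraries that change without it are given both ways.

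Of 57820 genes in the table, 12710 (21.98%) reached 1 CPM in all 6 libraries, and 31230 had 0 counts in all 6. Among 19263 protein-coding genes, 11516 (59.8%) reached that level and 3723 had no count. Protein-coding genes took 97.9% of all counts. Expression was spread over many genes: 64 genes with a mean of 1000 CPM or more held 14.8% of the counts, 2428 genes at 100 CPM or more held 67.8%, and 9781 genes at 10 CPM or more held 98.4%. The median over genes that reached 1 CPM in all 6 libraries was 33.7 CPM, or 9.12 CPM per kilobase of exon. Among protein-coding genes at that level the medians were higher, at 38.7 CPM and 10.1 CPM per kilobase. The gene groups are set against the medians of all genes, although most of their members are protein-coding. A gene said to lead a list does so by CPM, which favours long transcripts, and genes were ordered against each other only per kilobase.

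**Figure D1:**
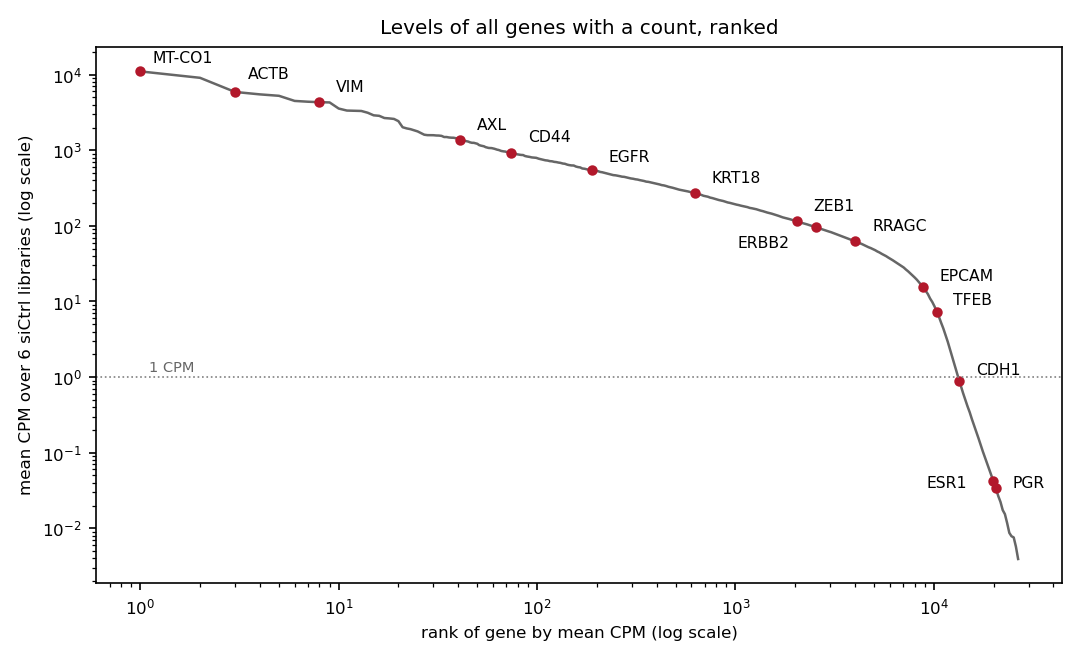
Mean CPM over the 6 siCtrl libraries (log scale) against rank (log scale) for all genes with a count, with named genes as red points; the dotted line marks 1 CPM. VIM lies at rank 8, CD44 at rank 74 and RRAGC at rank 4022, whereas CDH1, ESR1 and PGR lie under the line.

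The most abundant RNAs came mainly from the mitochondrial genome, the cytoskeleton and glycolysis, beside the chaperone genes HSP90AA1, HSPA8 and HSP90AB1. Of the 30 genes with the highest mean CPM, 10 were encoded by the mitochondrial genome, 6 belonged to the list of cytoskeletal genes and 4 to that of glycolysis. MT-CO1, the catalytic subunit of cytochrome oxidase, led in all 6 libraries at 9196, 10511 and 14748 CPM. MT-ND4, a subunit of respiratory complex I, ranked next in all 6 at 7287, 8557 and 12393 CPM. The share of counts from the mitochondrial genome was 4.15% to 6.63%, highest in replicates 2 and 1. Beta-actin (ACTB), at rank 3, was the highest nuclear gene at 4982, 5790.4 and 6926 CPM, and the translation elongation factor EEF1A1 followed at 5173, 5435 and 5882 CPM. Gamma-actin (ACTG1) was less variable, with 3277, 3597 and 3737 CPM. Among crosslinkers and motors of actin, the filamin gene FLNA reached 3313 ± 429 CPM and the myosin heavy chain MYH9 1841 ± 197 CPM. Of the 30, 24 kept a rank of 1 to 30 in every library.

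Glycolytic genes were high as a group. Of 24 listed genes, 21 reached 1 CPM in all 6 libraries, with a median of 356 CPM among those 21. GAPDH had 3987, 4271 and 4838 CPM, the pyruvate kinase gene PKM 2501, 2683 and 3530.2 CPM and the enolase gene ENO1 2609, 2864 and 3105 CPM. The ENO1 and GAPDH values kept within a narrow band, while the highest PKM values were those of the D1103 libraries. The lactate dehydrogenase gene LDHA, at 656 ± 34.5 CPM per kilobase, was 1.53 times LDHB on the same scale and above it in 6 of 6 libraries, although 33.4% of the exonic bases of LDHB are shared with another gene on the same strand. The glucose transporter SLC2A1 had 647 ± 45.9 CPM. The pyruvate kinase gene of other tissues, PKLR, had 1 count in all. The chromatin protein gene HMGA1 (1878, 2539 and 3750.5 CPM) and the secreted insulin-like growth factor binding protein gene IGFBP4 (2155, 2658 and 3019 CPM) also stood among the 20 highest. HMGA1 was lowest in replicate 6 and highest in replicate 2.

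Per kilobase of exon, short messages moved up and 21 of the 30 highest genes were shared with the CPM order. Of the 13 mitochondrial mRNAs 12 were then among the 30, beside the ribosomal RNA MT-RNR2, led by MT-CO2 at 7686 ± 1668 CPM per kilobase. Ribosomal protein genes, absent from the 30 highest by CPM, held 4 places per kilobase: RPS18 at 1099 ± 62.6, RPL7A at 1097 ± 44.8, RPL12 at 1020.0 ± 102 and RPS27 at 915 ± 45.2. VIM stayed high at 2317 ± 337 CPM per kilobase, rank 11. The actin-sequestering peptide gene TMSB10 (1443 ± 213 CPM per kilobase) and the ferritin light chain gene FTL (1315 ± 261 CPM per kilobase) entered through their short length. FLNA and PLEC, which code for very large proteins, dropped to ranks 74 and 431. Ribosomal proteins, actins, tubulins and EEF1A1 have many processed pseudogenes, and the sources used here do not say how shared reads were divided, so their levels are uncertain to that extent.

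Many of the abundant translation genes are terminal oligopyrimidine messages, whose translation mTORC1 controls through a run of pyrimidines that begins with C at the first transcribed base. The first 25 bases of the RefSeq transcript (GRCh38.p14) are shown for such genes among the abundant ones, with the leading pyrimidine run in capitals, and for VIM and GAPDH, which begin on G and have no such run.
EEF1A1, chr6:73521008-73521032, minus strand: CTTTTTCgcaacgggtttgccgcca
EEF2, chr19:3985439-3985463, minus strand: CTCTTCCgccgtcgtcgccgccatc
TPT1, chr13:45341159-45341183, minus strand: CTTTTCCgcccgctcccccctcccc
RPS18, chr6:33272075-33272099, plus strand: CTCTCTTCCacaggaggcctacacg
RPL7A, chr9:133348218-133348242, plus strand: CTTTCTCTCTCCTCCCgccgcccaa
RPL12, chr9:127451382-127451406, minus strand: CCTCTCggctttcggctcggaggag
RPS27, chr1:153990762-153990786, plus strand: CCTTTCCggcggtgacgacctacgc
VIM, chr10:17228241-17228265, plus strand: gggaggcccacgtatggcgcctctc
GAPDH, chr12:6535264-6535288, plus strand: gtccggatgctgcgcctgcggtaga
A start on C followed by at least 4 bases that are each C or T was present in 49 of 85 annotated starts of ribosomal protein genes (57.6%). Such a start was less frequent in the list of translation factors, with 5 of 15 starts (33.3%). Among the 30 genes with the highest CPM, 3 of 24 starts had it (12.5%). It was present in 4.07% of all 35116 starts in the table and in 5.24% of starts of genes at 1 CPM or more in all 6 libraries. The 83 ribosomal protein genes that reached 1 CPM in all 6 libraries, of 87, had a median CV of 6.78%, and together they took 3.23% to 3.4% of counts. Between series D1103 and D1221, 2 of 83 tested, RPL9 among them, were called higher in D1221 by edgeR's quasi-likelihood test at an adjusted p under 0.05. Over all genes tested the share called higher was 2.35%, so the count for ribosomal protein genes lay near the background. The elongation factor EEF2 had 1213, 1609 and 1700.2 CPM, with its lowest value in replicate 6, and the translationally controlled tumour protein gene TPT1 had 562, 662 and 678 CPM.

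The 3 markers of the line were all well expressed. Vimentin (VIM), the intermediate filament of mesenchymal cells, had 3767, 4057 and 5398 CPM and a mean of 4328 ± 629 CPM (SD, n = 6). The hyaluronan receptor CD44 had 763, 946 and 1046 CPM. The repressor ZEB1, which silences epithelial genes, had 108, 112 and 129.9 CPM. VIM was highest in the D1103 libraries, CD44 was lowest there, and ZEB1 differed little. Of 30 mesenchymal genes, 22 (73.3%) reached 1 CPM in all 6 libraries, with a median of 279 CPM among those 22 against 33.7 CPM for all genes at that level. The membrane-cytoskeleton linker MSN (1523, 1568 and 1706 CPM), the receptor kinase AXL (1302, 1363 and 1465 CPM) and the matrix glycoprotein THBS1 (1199.8, 1523 and 2101 CPM) were the highest after VIM. FN1, the fibronectin gene, had 684, 773 and 1111 CPM and was highest in replicate 2.

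The transcription factors of the mesenchymal state were unequal. Among the ZEB and SNAI genes ZEB1 was highest per kilobase at 17.9 ± 1.26, followed by SNAI2 at 9.28 ± 0.693 CPM per kilobase, an order kept in 6 of 6 libraries. SNAI1 (1.81 ± 0.435) and ZEB2 (1.69 ± 0.106) were close on that scale, with SNAI1 above ZEB2 in 3 of 6 libraries. PRRX1 had 2.34, 3.3 and 4.31 CPM and FOXQ1 13.3, 23.8 and 34 CPM, the latter equal to 10.8 ± 3.28 CPM per kilobase. TWIST1 and TWIST2 had no count in any library, which allows up to 0.0195 CPM over the pooled 154.6 M counts (3 counts, for counting error only). FOXC2 had 1 count in all. Several proteins of the mesenchymal surface and matrix were also near absent: N-cadherin (CDH2) had 0.137, 0.382 and 0.50 CPM, THY1 0, 0.223 and 0.273 CPM and SPARC 0.50, 1.04 and 1.46 CPM. Cadherin-11 (CDH11) was the cadherin of the mesenchymal list with a clear level, at 61.4, 70.8 and 92.8 CPM.

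Epithelial genes were present in part. Of 39 matched genes, 29 (74.4%) reached 1 CPM in all 6 libraries, a share close to that of the mesenchymal list, but with a median of 34.4 CPM among those 29. E-cadherin (CDH1), the defining adhesion protein of epithelia, had 0.418, 0.787 and 1.5 CPM, 135 counts in total. The epithelial adhesion molecule EPCAM had 13.2, 15.5 and 18 CPM. Keratins of the epithelial list were abundant. KRT7 had 444, 629 and 687 CPM and KRT8 403, 518 and 631 CPM, with KRT18, KRT19, KRT80 and KRT81 at means of 252 to 469.8 CPM. Per kilobase, KRT18 (134 ± 13.5) lay near CD44 (151 ± 16.2), with CD44 higher in 4 of 6 libraries, while VIM was above CD44 in 6 of 6 and 15.3 times it by the means. Desmosomal and tight junction genes were measured too: DSG2 had 213, 231 and 271 CPM, the claudin CLDN4 74.6, 106 and 123 CPM, TJP1 100.4, 113 and 124 CPM and the desmoplakin gene DSP 18.9, 43.3 and 51.4 CPM.

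Of 8 listed regulators that hold the epithelial state, 3 reached 1 CPM in all 6 libraries and 4 stayed under 0.1 CPM in every one. The splicing regulator ESRP1 had 5 counts in 6 libraries, GRHL2 4, OVOL1 5 and OVOL2 5. Outside the regulators, RAB25, a vesicle-trafficking GTPase of epithelia, and the tight junction gene MARVELD3 had no count. ESRP2, the paralogue of ESRP1, had 15.9, 19.7 and 22.3 CPM, KLF5 36.3, 39.8 and 47.3 CPM, ELF3 1.49, 2.18 and 2.81 CPM and GRHL1 0.706, 1.09 and 1.17 CPM. The serine protease inhibitor SPINT2 was retained at 157, 203 and 239.8 CPM, whereas one of its target proteases, PRSS8, had 0, 0.185 and 0.313 CPM.

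**Figure D2:**
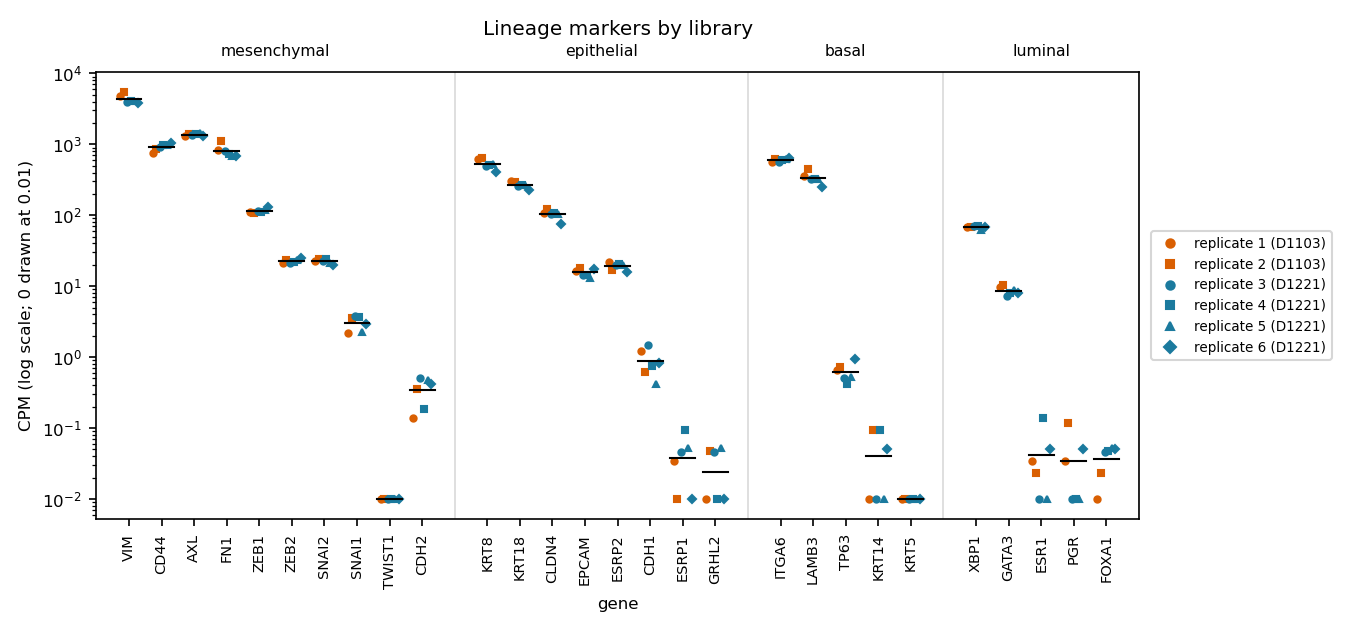
CPM (log scale, with 0 drawn at 0.01) of mesenchymal, epithelial, basal and luminal marker genes; each point is 1 siCtrl library, coloured by code series, and each black bar is the mean of 6. VIM, CD44 and AXL lie at 763 CPM or more in every library, KRT8 and KRT18 between 228 and 631, and TWIST1 and KRT5 at 0.

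Basal cells of the breast were represented by their adhesion genes and not by their keratins. None of 6 basal keratins reached 1 CPM: KRT5 and KRT6B had no count, KRT14 had 7 counts and KRT17 17. The hemidesmosome genes were high, with ITGA6 at 561, 609.8 and 646 CPM, ITGB4 at 304, 433 and 588 CPM and the laminin chain LAMB3 at 253, 322 and 442 CPM. The basal master regulator TP63 had 0.422, 0.587 and 0.927 CPM, and the myoepithelial genes ACTA2 and TAGLN had means of 6.65 and 8.74 CPM. SOX10, a neural crest factor found in many triple-negative tumours, had no count. Of 22 genes in the basal and myoepithelial list, 11 reached 1 CPM in all 6.

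Luminal genes were the least complete of the breast lists, with 10 of 25 at 1 CPM or more in all 6. The oestrogen receptor gene ESR1 had 0, 0.0289 and 0.141 CPM and 6 counts in all, and the progesterone receptor gene PGR 0, 0.0171 and 0.118 CPM and 7 counts. Their means were both near the limit that a count of 0 allows, which is 0.0706 to 0.157 CPM for a single library. FOXA1, the pioneer factor of oestrogen receptor binding, had 5 counts, whereas GATA3, its luminal partner, had 7.18, 8.44 and 10.3 CPM. The stress factor XBP1 (62.9, 68.4 and 70.2 CPM), the ETS factor SPDEF (23.7, 46.6 and 66.1 CPM) and the melanosome-transport adaptor MLPH (124, 157 and 177 CPM) were well above 1 CPM. Among other genes of the luminal list, GREB1 averaged 0.571 CPM, TFF1 0.0947 and SCUBE2 0.389 CPM. Milk proteins CSN2, CSN3 and LALBA had no count.

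Markers of other cell types were under 1 CPM for the larger part. In bulk RNA, a low level cannot tell few cells of a type from little RNA in each. None of 11 leukocyte markers reached 1 CPM in all 6 libraries: PTPRC had 0.313, 0.434 and 0.772 CPM and CD8A 0.422, 0.703 and 1.04 CPM, while CD3E and MS4A1 had no count. Summed over the 11, leukocyte markers came to 1.83 to 2.98 CPM. Of 6 endothelial markers, VWF averaged 0.101 CPM, CDH5 had 3 counts and CLDN5 none, while the VEGF receptor gene KDR had 4.02, 4.4 and 5.45 CPM. Of 47 matched genes of other lineages, 9 reached 1 CPM in all 6, among them 4 of 5 neural markers, MBP, GFAP, SNAP25 (3.62, 3.88 and 4.86 CPM) and SYP (1.13, 1.44 and 2.26 CPM). The myelin gene MBP, whose locus also makes a longer transcript outside the nervous system, led at 90.2, 101 and 105 CPM. The collagen gene COL1A1 had 22.8, 30.1 and 37.5 CPM, the glial filament gene GFAP 5.74, 7.28 and 9.46 CPM and the pericyte receptor gene PDGFRB 4.48, 6.9 and 8.82 CPM, while fibroblast genes COL3A1, DCN and PDGFRA averaged 0.105, 0.0662 and 0.0117 CPM.

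Receptor tyrosine kinases were led by AXL. Of 54 genes, 32 (59.3%) reached 1 CPM in all 6 libraries, against 59.8% of all coding genes. AXL, a kinase of the TAM family bound by GAS6, was at 279 ± 12.4 CPM per kilobase, and its relatives MERTK (6.72 ± 1.25) and TYRO3 (3.19 ± 0.292) were far below it in 6 of 6 libraries. Within the ERBB family, EGFR had 478, 551 and 613 CPM and ERBB2 79.7, 93.7 and 112 CPM. Per kilobase the order was EGFR (48.4 ± 4.21), ERBB2 (16.9 ± 2.03), ERBB3 (2.31 ± 0.281) and ERBB4 (0.0213 ± 0.012), each step kept in 6 of 6 libraries. The EGFR-to-ERBB2 ratio of the mean levels per kilobase was 2.86.

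Among the other kinases, the ephrin receptor EPHA2 had 441, 560.1 and 719.8 CPM, and per kilobase its level was 148 ± 26.5 against 48.4 ± 4.21 for EGFR. The ephrin receptor EPHB2 (167, 233 and 286 CPM), the hepatocyte growth factor receptor MET (283, 325 and 384 CPM) and FGFR1 (157, 171 and 209 CPM) were also well above 1 CPM. The ligand of MET, HGF, had no count. Of the insulin receptor family, IGF1R averaged 40.4 and INSR 24.6 CPM, and the ligand genes IGF1 and IGF2 had 0 and 1.08 CPM. Both values are uncertain, since 82.4% and 75% of their exonic bases overlap another gene on either strand. ALK, RET, KIT, NTRK2, FLT4, EPHA8 and EPHB1 had no count in any library. Of the 9 EPH receptors that reached 1 CPM in all 6, EPHA2 was the highest by CPM.

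Receptors of the transforming growth factor beta pathway were mostly expressed. Of 14 genes 11 reached 1 CPM in all 6, among them the type II receptor TGFBR2 (257, 298 and 337 CPM) and the type I receptor TGFBR1 (88, 117 and 128 CPM). The endothelial co-receptor ENG had 0.0706, 0.149 and 0.206 CPM and the endothelial type I receptor ACVRL1 4 counts. Of the ligands, TGFB1 had 130.4, 196 and 259.9 CPM and TGFB2 63.1, 107 and 123 CPM, and per kilobase TGFB1 exceeded TGFB2 in 6 of 6 libraries and both exceeded TGFB3. BMP4 had 64.9, 85.5 and 147 CPM, and the BMP antagonist NOG was expressed as well, at 20.3 ± 3.12 CPM.

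Cytokine receptors reached 1 CPM in 27 of 34 cases. The shared signal transducer IL6ST (gp130) led at 343, 383 and 424 CPM, beside OSMR (228, 269.6 and 294 CPM) and LIFR (51.9, 65 and 78.6 CPM), its partners in the oncostatin M and leukaemia inhibitory factor receptors. The ligand-binding chains IL6R and IL11RA were low, at 3.98 and 3.97 CPM. Death receptors and tumour necrosis factor receptors were expressed, with TNFRSF21 at 309, 318 and 329 CPM, TNFRSF10B at 228, 239 and 250.3 CPM and TNFRSF1A at 138, 169 and 194 CPM. The lymphoid receptor genes IL2RA and CRLF2 and the growth hormone receptor gene GHR had no count.

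G protein-coupled receptors at 1 CPM or more in all 6 libraries numbered 30 of 47. The orphan receptor GPRC5A had 336, 584 and 776 CPM, lowest in replicate 6, and the protease-activated receptor F2RL1 had 464, 514 and 538 CPM. The thrombin receptor F2R (96.8, 107 and 113 CPM), the lysophosphatidic acid receptor LPAR1 (142, 149.8 and 168 CPM) and the adenosine receptor ADORA2B (92.3, 101 and 108 CPM) were also above the median of expressed genes. The chemokine receptor CXCR4, much studied in metastasis of this line, had 10.7, 11.4 and 13 CPM, and its ligand CXCL12 had no count. CXCR1, CXCR2, BDKRB1, FZD10 and the Hedgehog transducer SMO had no count either. Nuclear receptors were led by the orphan NR2F2 (214, 229.8 and 285 CPM) and by the glucocorticoid receptor NR3C1 (119, 150.3 and 171 CPM). NR3C1 was thus the steroid receptor with the highest level, 18 ± 2.11 CPM per kilobase, against 1.68 ± 0.103 for the mineralocorticoid receptor and 0.304 ± 0.106 for ESR2.

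Integrins covered laminin, collagen and fibronectin binding. The common beta chain ITGB1 had 1341, 1441 and 1557 CPM, and among alpha chains the laminin receptor ITGA3 had 945, 1223 and 1502 CPM, the collagen receptor ITGA2 754, 794 and 893 CPM and the fibronectin receptor ITGA5 285, 349 and 423 CPM. Per kilobase ITGA3 was first at 257 ± 39.9, and ITGA6 (103 ± 5.59) and ITGA2 (102 ± 6.54) could not be ordered, with ITGA6 higher in 3 of 6 libraries. Leukocyte integrin chains ITGAL, ITGAM and ITGA4 had 1, 10 and 2 counts in all.

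Secreted cytokines centred on the gp130 family and on colony-stimulating factors. CSF1, the growth factor of macrophages, was the highest at 263, 372 and 543 CPM. IL11 had 89.2, 201 and 230.3 CPM and LIF 80.7, 103 and 129 CPM, both ligands that signal through gp130, and IL6 had 19.4, 28.8 and 37.9 CPM. Of the chemokines, the neutrophil attractants CXCL8 (24.1, 54.4 and 72.3 CPM) and CXCL1 (12.9, 19 and 30.1 CPM) led, and CCL2 had 4 counts. IL11, CXCL8 and CSF1 varied by library, IL11 and CXCL8 being lowest in the D1103 libraries and CSF1 highest there. CSF2 had 34.8 ± 6.7 CPM. Of 41 matched cytokine genes, 23 reached 1 CPM in all 6 libraries and 9 had no count, among them OSM, IL2, IL4 and IL33. The level of MIF (39.9 CPM) is uncertain, since 62% of its exonic bases overlap another annotated gene.

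Growth factors at 1 CPM or more in all 6 numbered 45 of 74. The matricellular gene CCN1 had 797, 874 and 927 CPM, and VEGFA, the main inducer of blood vessels, 267, 384 and 448 CPM. VEGFA was lowest in replicate 6. Per kilobase VEGFA, VEGFB and VEGFC followed in that order in 6 of 6 libraries. Of 9 genes for EGF-family ligands 7 reached 1 CPM in all 6, with TGFA at 82.2, 105 and 114 CPM, HBEGF at 65.9, 70.7 and 73.8 CPM and EREG at 54.5, 73.6 and 78.8 CPM; NRG1, which binds ERBB3 and ERBB4, had 92.7, 97.2 and 100.3 CPM. The Wnt antagonist DKK1 had 292, 339.6 and 399.8 CPM and, among the Wnt genes, WNT7B 94.9, 132 and 138 CPM. FGF2, BMP7, GREM1 and NODAL had no count.

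The proteases of matrix breakdown were uneven. MMP14, the membrane-bound collagenase that activates pro-MMP2, had 757, 991 and 1275 CPM, whereas MMP2 had 0, 0.151 and 0.261 CPM and MMP9 0, 0.0947 and 0.212 CPM. The interstitial collagenase MMP1 had 56.6, 69.6 and 96.2 CPM. The urokinase gene PLAU (359, 469.9 and 556 CPM), its receptor PLAUR (86.4, 98 and 118 CPM) and the sheddase ADAM9 (495, 564 and 621 CPM) were expressed beside the inhibitors TIMP2 (514, 559.6 and 582 CPM), TIMP3 (383, 441 and 912 CPM) and TIMP1 (200.04, 259 and 331 CPM). TIMP3 was the inhibitor with the widest range, highest in the D1103 libraries. Of 16 matched MMP genes, 7 reached 1 CPM in all 6, and all 8 listed inhibitors did.

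Matrix protein genes reached 1 CPM in all 6 libraries in 47 of 62 cases. After THBS1, the proteoglycan AGRN (537, 859.8 and 1011 CPM) was the highest of the list, with its lowest value in replicate 6. The laminin chains LAMA5 (477, 734 and 946 CPM), LAMC1 (534, 551 and 580.3 CPM) and LAMB1 (389, 399 and 413 CPM) together form a laminin of basement membranes. Collagen COL5A1 had 253, 424 and 599 CPM, COL7A1 191, 317 and 446 CPM and COL4A2 221, 324 and 352 CPM. Fibrillar COL1A2 and COL3A1 averaged 0.632 and 0.105 CPM; COL1A2 is the partner of COL1A1 in type I collagen. All 12 listed crosslinking enzymes reached 1 CPM in all 6, led by the transglutaminase TGM2 at 492, 586 and 691 CPM and the lysyl oxidase LOXL2 at 329, 423 and 439.6 CPM.

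Lysosomal genes were expressed nearly in full. Of 111 genes, 97 (87.4%) reached 1 CPM in all 6 libraries, with a median of 53.9 CPM among those 97 against 33.7 CPM for all genes at that level. Prosaposin (PSAP), the precursor of activators of sphingolipid breakdown, had 610.1, 709 and 809 CPM. Cathepsin D (CTSD), the main aspartic protease, had 398, 558 and 945 CPM; the D1103 libraries were at 945 and 880.3 CPM and the D1221 libraries at 567, 550.1, 536 and 398 CPM. Of its exonic bases 41.7% overlap another gene on the same strand and 52.7% on either, so its level and its place among the cathepsins are uncertain to that extent. Cathepsin B (CTSB) had 318, 380.0 and 463 CPM. Per kilobase CTSD (304 ± 102), CTSZ (219 ± 35.8), CTSB (93 ± 11.7), CTSA (86.2 ± 12.7), CTSL (39.3 ± 3.21) and CTSC (28.7 ± 1.6) followed in that order in 6 of 6 libraries. Of 17 cathepsins 13 reached 1 CPM in all 6, and the leukocyte cathepsin CTSG had no count.

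Hydrolases, membrane proteins and sorting receptors were expressed throughout. Among hydrolases 32 of 34 reached 1 CPM in all 6, led by the sulfatase IDS (325, 358 and 406 CPM); the exceptions were HYAL1 (0.654 CPM) and the osteoclast phosphatase ACP5 (0.345 CPM). Of the membrane proteins, the tetraspanin CD63 had 324, 344 and 389 CPM, LAMP1 185, 212 and 237 CPM, the cholesterol transporter NPC1 169, 207 and 213 CPM and LAMP2 154, 186 and 201 CPM. Per kilobase CD63, LAMP1, NPC1 and LAMP2 kept this order in 6 of 6 libraries. The macrophage-type genes CD68 and LAMP3 averaged 0.228 and 0.764 CPM, and 81.7% of the exonic bases of CD68 are shared with another gene on the same strand, so its level is uncertain. All 7 sorting genes reached 1 CPM in all 6, with the mannose 6-phosphate receptor IGF2R at 295, 323 and 337 CPM. The calcium channel MCOLN1 had 14.5, 17.4 and 24.8 CPM.

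Most subunits of the proton pump that acidifies the lysosome were expressed. Of 25 subunit genes 20 reached 1 CPM in all 6, among them the V0 subunit TCIRG1 (99.9, 144 and 186 CPM), the accessory subunit ATP6AP1 (113, 126 and 141 CPM) and the catalytic subunit ATP6V1A (55.9, 68.1 and 74.1 CPM). The tissue-restricted forms ATP6V1B1, ATP6V1C2, ATP6V1G2 and ATP6V1G3 averaged 0.0087 to 0.339 CPM, with 62.4% of the exonic bases of ATP6V1B1 shared. The proteolipid gene ATP6V0C was also low, at 0.36, 0.37 and 0.518 CPM, but 72.1% of its exonic bases are shared with another gene on the same strand, so its level is uncertain.

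MiT/TFE factors bind the sequence TCACGTG in promoters of lysosomal genes. The stretch from 250 bases before the transcript start to 25 bases after it (RefSeq, GRCh38.p14) is shown for CTSD, LAMP1 and MCOLN1, at high, middle and low levels among the lysosomal genes named above, and for RRAGC, the target of the study's siRNAs, with each TCACGTG or its reverse complement in capitals.
LAMP1, chr13:113296989-113297263, plus strand: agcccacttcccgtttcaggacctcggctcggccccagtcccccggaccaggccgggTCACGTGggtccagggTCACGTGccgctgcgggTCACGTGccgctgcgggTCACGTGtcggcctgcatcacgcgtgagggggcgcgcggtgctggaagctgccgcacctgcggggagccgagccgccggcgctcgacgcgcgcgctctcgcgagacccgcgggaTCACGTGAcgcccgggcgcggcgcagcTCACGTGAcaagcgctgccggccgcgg
MCOLN1, chr19:7522374-7522648, plus strand: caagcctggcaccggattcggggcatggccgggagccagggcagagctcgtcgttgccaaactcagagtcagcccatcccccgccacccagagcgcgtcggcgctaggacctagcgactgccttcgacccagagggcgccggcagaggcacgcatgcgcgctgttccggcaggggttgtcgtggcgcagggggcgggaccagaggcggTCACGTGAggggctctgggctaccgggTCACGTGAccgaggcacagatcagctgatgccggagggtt
CTSD, chr11:1763903-1764177, minus strand: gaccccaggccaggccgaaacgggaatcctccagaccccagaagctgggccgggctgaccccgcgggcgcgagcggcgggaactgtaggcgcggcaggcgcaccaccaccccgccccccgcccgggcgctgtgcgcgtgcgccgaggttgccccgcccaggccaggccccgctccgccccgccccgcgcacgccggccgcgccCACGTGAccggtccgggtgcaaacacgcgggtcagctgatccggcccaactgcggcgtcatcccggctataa
RRAGC, chr1:38859748-38860022, minus strand: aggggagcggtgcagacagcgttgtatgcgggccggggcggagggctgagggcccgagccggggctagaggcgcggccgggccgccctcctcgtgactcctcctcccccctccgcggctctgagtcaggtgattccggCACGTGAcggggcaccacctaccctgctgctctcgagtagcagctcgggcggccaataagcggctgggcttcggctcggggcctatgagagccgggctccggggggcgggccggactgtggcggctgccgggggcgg
Counting both strands, so that a palindromic TCACGTGA counts on each, LAMP1 held 8 matches in 6 places, MCOLN1 4 matches in 2 places, and CTSD and RRAGC 1 match each. Matches were then counted in windows that run to 50 bases after the start. TCACGTG was present in 22 of 97 windows (22.7%) of the lysosomal genes at 1 CPM or more. These windows come from 70 of the 97 genes, since the rest had no entry in the promoter table. The windows with a match belong to 21 genes. Over all 35116 windows the share with TCACGTG was 3.71%. It was 5.32% for genes at 1 CPM or more in all 6 libraries and 8.82% for the mTORC1 list. The lysosomal genes shown above all hold a match, so they do not stand for the whole list. A match describes these letters only. Genes with a match ranged from NAGPA (10.4 ± 1.3 CPM) to CTSD (646 ± 216 CPM). PSAP and CTSB were among the genes with no entry in the promoter table.

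The factors themselves differed widely in level. TFE3 had 158, 189 and 206 CPM, MITF 35.6, 44.9 and 47.8 CPM, TFEB 5.66, 7.65 and 7.99 CPM and TFEC 0.0343, 0.0976 and 0.328 CPM. Per kilobase TFE3 (55.1 ± 4.9) exceeded MITF (7.19 ± 0.742) by 7.66 times and MITF exceeded TFEB (1.64 ± 0.196) by 4.39 times, each in 6 of 6 libraries. TFEC, a form of myeloid cells, stood near 0 with 18 counts in all.

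The mTORC1 pathway was expressed almost in full: 51 of 55 matched genes (92.7%) reached 1 CPM in all 6 libraries. The median among those 51 was 45.7 CPM, against 33.7 CPM for all genes at that level. RRAGC, which codes for RagC, had 60.2, 61.4 and 68 CPM and a mean of 62.3 ± 2.88 CPM (SD, n = 6), at rank 4022. The 6 values were 68 and 61.1 CPM in series D1103 and 62, 61.8, 60.2 and 60.7 CPM in series D1221, and only replicate 1 stood off. Of its exonic bases, 22.9% overlap another annotated gene on the same strand. RRAGA, its partner, had 71.6, 78.9 and 81.6 CPM, RRAGB 18.9, 20.5 and 21.8 CPM and RRAGD 3.77, 5.43 and 6.59 CPM. Per kilobase RRAGA (49.4 ± 2.31) exceeded RRAGC (22.8 ± 1.05), RRAGC exceeded RRAGB (9.57 ± 0.497), and RRAGB exceeded RRAGD (1.08 ± 0.20), each in 6 of 6 libraries. Of the 2 genes that can fill the RagC position, RRAGC therefore held most of the message.

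Ragulator subunits were not equal in message. LAMTOR1, the lipid-anchored subunit, had 84.4, 93.8 and 100.2 CPM and LAMTOR5 54, 56.4 and 56.7 CPM. Per kilobase LAMTOR1 (38.2 ± 2.43) and LAMTOR5 (37.9 ± 0.844) could not be told apart, with LAMTOR1 higher in 4 of 6 libraries, and LAMTOR3 was the lowest at 5.72 ± 0.519. The lysosomal arginine sensor SLC38A9 had 15.9, 17.1 and 20.2 CPM. Within the kinase complexes MTOR had 112, 130.3 and 139 CPM, its mTORC1 partner RPTOR 81.6, 107 and 118 CPM and its mTORC2 partner RICTOR 49.6, 60.9 and 77.3 CPM. RPTOR and MTOR were close per kilobase, at 14.6 ± 1.75 and 13.5 ± 1.2, with RPTOR higher in 5 of 6. The inhibitory subunit DEPTOR was low at 0.209, 0.376 and 0.566 CPM, and the mTORC2 subunit PRR5 had 1 count while its relative PRR5L had 16.6 ± 1.31 CPM.

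Upstream regulators were expressed too, with 7 of 7 GATOR1 and KICSTOR genes, 5 of 5 GATOR2 genes and 6 of 6 TSC and RHEB genes at 1 CPM or more in all 6. The brake complex GATOR1 was represented by NPRL3 (51.5, 59.6 and 62.7 CPM), NPRL2 (23.2, 24.3 and 26.4 CPM) and DEPDC5 (11.5, 12.1 and 13.3 CPM), and GATOR2, which opposes it, by SEC13 (117, 132 and 138 CPM) and MIOS (36.4, 41 and 47.7 CPM). The leucine sensor SESN2 had 8.14, 13.5 and 16 CPM and the arginine sensor CASTOR1 0.234, 0.559 and 0.731 CPM, with 46% of its exonic bases shared with another gene. FLCN, which activates RagC by promoting its GTP hydrolysis, had 40.5, 45.2 and 47 CPM. The TSC genes TSC1 (69.5, 74.9 and 85 CPM) and TSC2 (80.5, 101 and 117 CPM) and their target RHEB (169, 175 and 188 CPM) were all expressed, as was the stress-induced inhibitor DDIT4 (128, 180.3 and 202 CPM), which was lowest in replicate 6. Of the substrates, LARP1, the repressor of terminal oligopyrimidine messages, was the highest gene of the list at 412, 422 and 453 CPM. The translation repressor EIF4EBP1 had 39.2, 53.1 and 60.3 CPM, EIF4EBP2 116, 118 and 133 CPM and EIF4EBP3 8 counts, the last uncertain with 73.4% of its exonic bases shared, and the kinase RPS6KB1 had 55.2, 63 and 77.9 CPM.

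**Figure D3:**
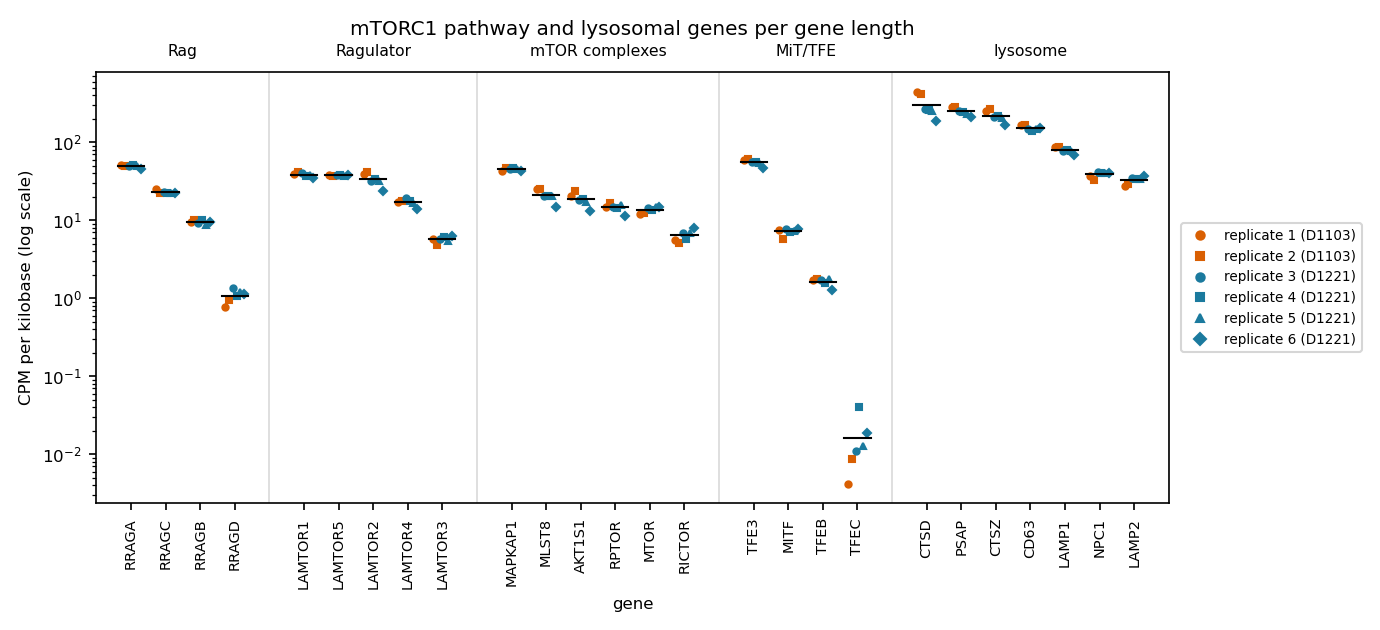
CPM per kilobase of exon (log scale) of Rag, Ragulator, mTOR complex, MiT/TFE and lysosomal genes; each point is 1 siCtrl library, coloured by code series, and each black bar is the mean of 6. RRAGA, RRAGC, RRAGB and RRAGD descend from 49.4 ± 2.31 to 1.08 ± 0.20, and TFEC is at the bottom.

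Proliferation and growth genes were active. Of 24 cell cycle genes 22 reached 1 CPM in all 6 libraries; the exceptions were CDKN2A and CDKN2B, with no count. The topoisomerase TOP2A had 428, 534 and 777 CPM, cyclin D1 (CCND1) 416, 492 and 587 CPM and the proliferation antigen MKI67 367, 406 and 581 CPM. Among the cyclins D, CCND1 was 3.51 times CCND3 per kilobase and CCND2 was lowest. RB1, the target of CDK4 and CDK6, had 91.3, 106 and 126 CPM. The growth drivers were expressed in 21 of 23 cases, led by YAP1 (226, 277 and 291 CPM), AKT1 (176, 216 and 246 CPM) and WWTR1 (149, 163 and 176 CPM). MYC had 116, 130.1 and 143 CPM, while MYCN had 2 counts. Of 12 stem cell markers 5 reached 1 CPM in all 6; next to CD44 the endothelial protein C receptor gene PROCR had 49.1, 53.4 and 54.1 CPM, whereas ALDH1A1, PROM1 and LIN28A had 4, 2 and 4 counts, and NANOG and LIN28B none.

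The absence of CDKN2A and CDKN2B extended to their neighbours on the short arm of chromosome 9. From HACD4 to IZUMO3, all 24 protein-coding genes of the RefSeq table had 0 counts in all 6 libraries, including the methylthioadenosine phosphorylase gene MTAP, the ubiquitin ligase adaptor KLHL9, the interferon genes IFNB1 and IFNA1, DMRTA1 and ELAVL2; the antisense RNA CDKN2B-AS1 had none either. Over all protein-coding genes, 19.3% had no count. Interferon genes of the run, such as IFNB1, IFNA1 and IFNE, are silent in most unstimulated cells. The share over all protein-coding genes is therefore no like background for the run. MTAP and KLHL9 are active in most cells. Most of the listed genes on both sides were expressed. On the side of HACD4, FOCAD had 3.98, 4.9 and 5.2 CPM and MLLT3 26.1, 29.3 and 32.4 CPM. On the side of IZUMO3, TUSC1 had 6.75, 10.4 and 14.2 CPM, CAAP1 29.7, 34.5 and 36 CPM and PLAA 77.7, 86.2 and 88.9 CPM. Further out on that side IFT74 and MOB3B averaged 21.7 and 3.74 CPM, whereas TEK and EQTN averaged 0.163 and 0.0172 CPM. Of the exonic bases of MTAP and CDKN2A, 9.58% and 7.88% overlap another gene on either strand. DNA was not measured here, and the cause of the run was not tested.

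**Figure D4:**
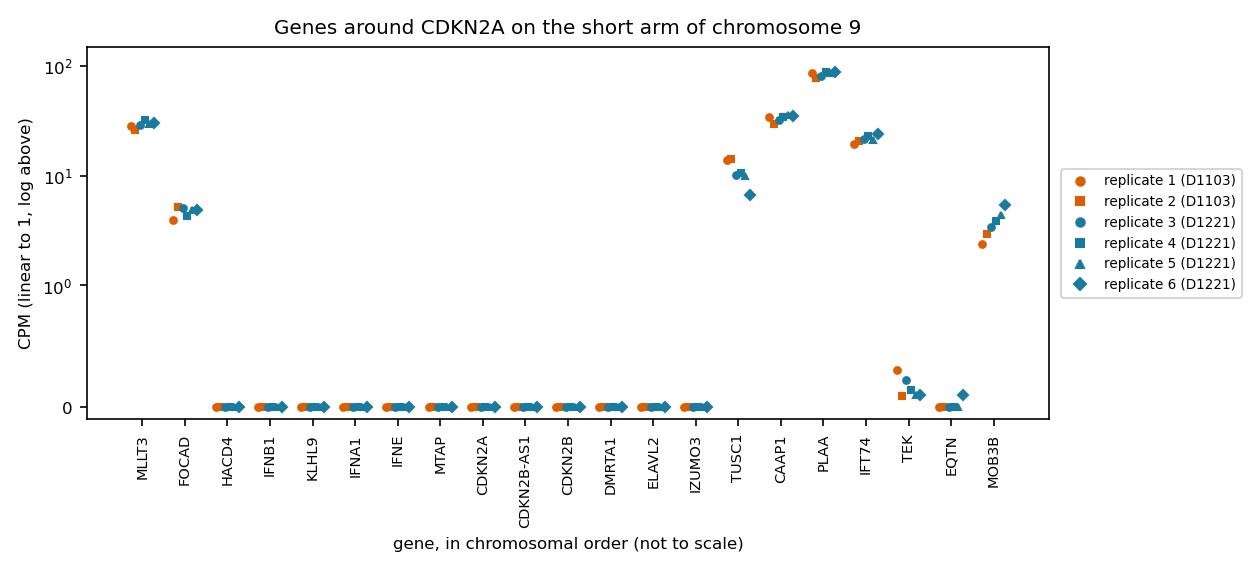
CPM (linear to 1, log above) of genes around CDKN2A in chromosomal order, not to scale; each point is 1 siCtrl library, coloured by code series. The genes from HACD4 to IZUMO3 are at 0 in all 6 libraries, between FOCAD at 4.72 and TUSC1 at 10.9 CPM on average.

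Other listed genes with no count were spread over lineages. Of 925 matched genes in all lists 637 (68.9%) reached 1 CPM in all 6 libraries and 94 had no count. None of 22 cancer-testis antigen genes reached 1 CPM, and 13 of them, among them PRAME, MAGEA1, MAGEA4 and CTAG1B, had no count; the highest was MAGEA3 with 0, 0.0696 and 0.104 CPM. An absent count can also come from counting rules. EEF1G, a translation elongation factor subunit that growing cells use, had 0 counts in all 6, and 99.9% of its exonic bases overlap another gene on the same strand. EIF4A1, an abundant initiation factor in most cells, had 5.79, 6.45 and 8.09 CPM with 48.6% overlapped. Of the 94 listed genes with no count, 8 had any such overlap and EEF1G alone had it over more than 50% of its bases; on either strand 2 did, EEF1G and IGF1. Among all 3723 protein-coding genes with no count, 382 had it over more than 50%. The sources used here do not say how reads in shared exons were counted.

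Control libraries were also compared by code series, the only division of the controls that the labels give. This measures how far baseline levels moved between sets of libraries and is no treatment effect. With edgeR's quasi-likelihood test, 660 of 15034 genes (4.39%) differed at a Benjamini-Hochberg adjusted p under 0.05, 353 higher (2.35%) and 307 lower (2.04%) in D1221. The median absolute log2 change of the called genes was 0.50, and 88 passed 2-fold. The count rested on single libraries. It was 1779 higher and 2035 lower without replicate 6, and without any one of replicates 1 to 5 it fell to 14 to 37 higher and 10 to 34 lower. The difference between series also moved with base composition: the median log2 difference was 0.18 in the 2710 genes of lowest GC content and -0.28 in the 2710 of highest, and 0.14 and -0.20 with replicates 3 to 5 alone. The part of GC content in these calls was not tested.

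Interferon-stimulated genes were lower in D1221. Of 26 such genes 23 reached 1 CPM in all 6, so the programme had a basal level in the controls; 25 were tested, and 9 were lower and 0 higher, with a median log2 difference over the 25 of -0.46 against 0.00 over all genes tested. IFIT1, which binds foreign RNA, had 62.3 and 53.5 CPM in D1103 and 29.7, 29.3, 31.1 and 33.1 CPM in D1221. Its log2 difference was -0.90 (SE 0.09, edgeR adjusted p = 0.00203). IFIT3 had 107 and 104 CPM against 56.7, 58.1, 60.2 and 60.8 CPM, a log2 difference of -0.83 (SE 0.07, edgeR adjusted p = 0.000775). IFIT2, OASL, OAS2, OAS3, MX1, ISG15 and HLA-C were the other 7 that were lower, and HLA genes are polymorphic, so that their counts are less certain. Without replicate 6, 16 of 25 were lower and 1 higher; DESeq2 called 13 lower and limma-voom 10, with 0 higher in both, and 1 gene was higher at an unadjusted p under 0.05. Over all genes the shares called lower were 13.6% without replicate 6, 8.17% by DESeq2 and 3.15% by limma-voom, and the shares called higher 11.9%, 8% and 3.43%. The called interferon genes had a median GC content of 52.5%.

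Mitochondrial mRNAs were lower in D1221 for 8 of 13 genes by edgeR and higher for 0, also at an unadjusted p under 0.05. DESeq2 called 11 and limma-voom 10 of them lower, and edgeR 4 without replicate 6. Over all genes the shares called lower were 2.04% by edgeR, 8.17% by DESeq2, 3.15% by limma-voom and 13.6% by edgeR without replicate 6. The whole mitochondrial share of counts was highest in replicates 2 and 1, so the 13 genes are not independent results. MT-ND1 had 1719.7 and 2536 CPM in D1103 and 1253, 1417, 1433 and 1139 CPM in D1221, a log2 difference of -0.69 (SE 0.14, edgeR adjusted p = 0.0383, and 0.12 without replicate 6), and the ribosomal RNA MT-RNR2 had 2754 and 4017 CPM against 3047, 3611, 3436 and 3259 CPM (adjusted p = 0.968). The calcium-binding protein gene S100A6 was among the most abundant genes called, at 2156 and 2059.8 CPM against 1353, 1398, 1295 and 1234 CPM (log2 difference -0.66, SE 0.07, adjusted p = 0.00295). FTL (-0.48 on the log2 scale) and PKM (-0.38) were lower too. Among named genes outside the lists, those higher in D1221 at the highest levels were MICAL2 (0.35), the mitochondrial chaperonin gene HSPD1 (0.33), RPL9 (0.42), the splicing kinase gene SRPK1 (0.34) and the carboxypeptidase gene CPD (0.39). TNPO1, FSTL1, UHMK1, TOMM20 and FOSL2 followed, at log2 differences of 0.35 to 0.46.

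Secreted and surface genes moved in both directions. IL11 was at 89.2 and 90.9 CPM in D1103 and 225, 209.7, 230.3 and 192 CPM in D1221. Its log2 difference was 1.26 (SE 0.09, edgeR adjusted p = 0.00068). IL24 (1.87) and CXCL8 (0.97) were higher as well, although CXCL8 did not pass without replicate 6 (edgeR adjusted p = 0.0378 with it and 0.131 without), and CSF1 was lower (-0.57, adjusted p = 0.0496). Of 54 tested matrix protein genes COL6A1 had the lowest edgeR adjusted p (0.00885). It had 222 and 248 CPM against 103, 93.7, 94.3 and 58.2 CPM (log2 difference -1.42, SE 0.18). TIMP3 (-0.87), PLAT (-0.66), MMP1 (-0.45) and BMP4 (-0.88) were lower, and TGFB2 (0.63) and its receptor TGFBR1 (0.44) were higher. TIMP3 passed with 6 libraries (edgeR adjusted p = 0.0244) and not without replicate 6 (0.0735). VIM was lower by the same test (-0.35, SE 0.07, adjusted p = 0.0378), CD44 did not pass with 6 libraries (0.28, adjusted p = 0.0667) and passed without replicate 6 (0.24, adjusted p = 0.00515), and ZEB1 passed in neither (0.13, adjusted p = 0.277).

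None of 53 tested mTORC1 genes was called between series by edgeR with 6 libraries, against 4.39% of all 15034 genes tested. At an unadjusted p under 0.05, 8 were higher and 7 lower, against 4753 of the 15034 in either direction. DESeq2 called 3 higher and 3 lower, limma-voom 1 higher, and edgeR without replicate 6 called 7 higher and 5 lower. Over all genes these settings called 16.2%, 6.58% and 25.5% in either direction, each a larger share than in the list. RRAGC had a log2 difference of -0.07 (SE 0.07, edgeR adjusted p = 0.543). Of 102 lysosomal genes 3 were higher (LAMP2, LAPTM4B and ATP6AP2) and 5 lower (CTSD, CTSA, NAGLU, MCOLN1 and ATP6V0D2), and without replicate 6 the counts were 9 and 30 of 103. Over all genes the shares were 2.35% higher and 2.04% lower with 6 libraries, and 11.9% and 13.6% without replicate 6. CTSD had the largest level among them and a log2 difference of -0.82 (SE 0.12, adjusted p = 0.0205). None of the 3 tested MiT/TFE genes was called by edgeR, DESeq2 or limma-voom, and 0 had an unadjusted p under 0.05 in edgeR with 6 libraries.

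**Figure D5:**
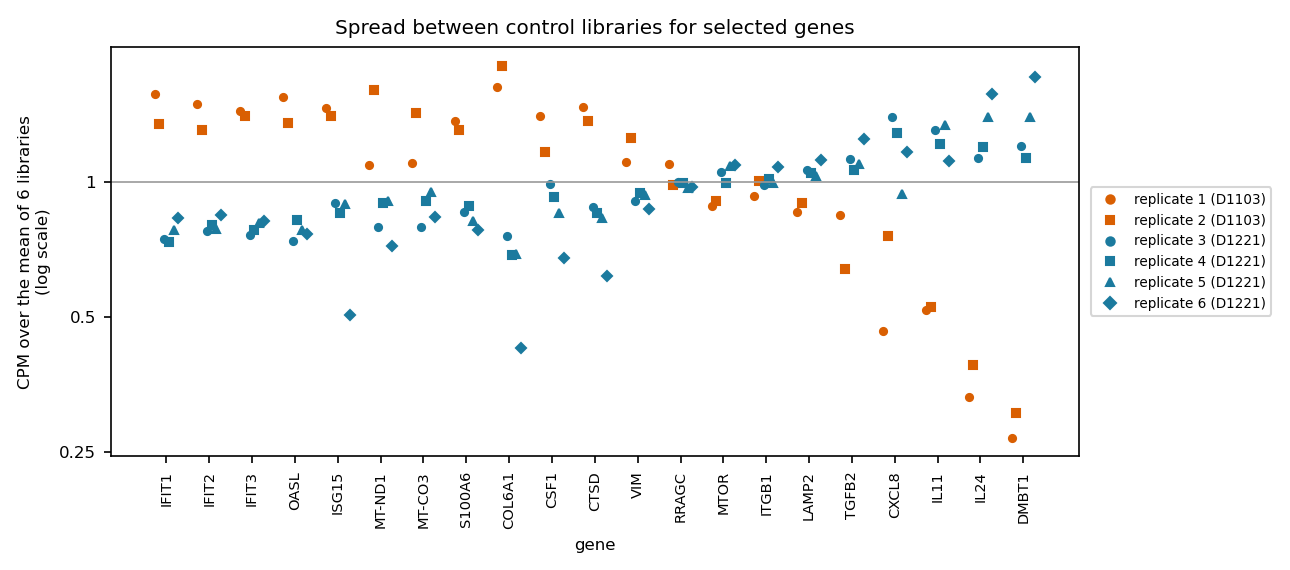
CPM of each siCtrl library divided by the mean of 6 (log scale) for genes named in the text, coloured by code series. Interferon-stimulated genes, COL6A1 and CTSD lie above 1 in both D1103 libraries and IL11, IL24 and DMBT1 below it, while RRAGC, MTOR and ITGB1 stay near 1.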

How the data were processed

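Raw counts per gene in 1 table of 18 libraries were deposited by the authors, and the 6 siCtrl columns were used. Per the submitters' processing notes, cutadapt 0.6.2, STAR 2.7.6a and GRCh37/hg19 were used; the sources used here do not state the counting tool, strand setting or annotation release. Without strand, reads of a gene and its antisense partner cannot be told apart.

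CPM was computed with edgeR 4.0.16 and TMM factors over the 6 libraries in R 4.3.3. Levels of different genes were ordered per kilobase, with the union exon length of the GENCODE 29 basic set (GRCh38), found for 52337 of 57820 genes, which hold 99.4% of counts. The limit for 0 counts is 3 counts, and it covers counting error only. Code series were compared with edgeR's quasi-likelihood test after filterByExpr, with Benjamini-Hochberg adjustment; its p-values reflect only how these samples vary, which may be technical. The procedure was tested on simulated data.

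The 27 gene lists held 934 symbols, 925 of them matched (3 through another name). The members and lists were chosen with earlier results of these data known. Named were the 30 genes with the highest CPM and the 30 with the highest CPM per kilobase, RRAGC, VIM, CD44, ZEB1, ESR1, PGR, ERBB2, EGFR and CDH1, list members, the 10 most abundant called genes outside the lists in each direction and the 10 with the largest CV at a mean of 5 CPM or more. Alternatives were other normalization factors, level thresholds of 0.5 and 2 CPM, each library left out, each code series alone, no filter, DESeq2 1.42.0, limma-voom 3.58.1, an adjusted p under 0.01 and a minimum fold of 1.5. Replicates differed by more than sampling noise, with a count variance at least 2.88 times that of counting. Promoter and transcript start sequences are from RefSeq. Protein sequences and reads were not analysed here, and some genes that this rule names are not reported here.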

Additional observations from a re-analysis of the deposited data

Results flagged for a closer look

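Of 93 genes examined library by library, 7 had a highest or lowest library whose gap to the nearest of the others was above the 95% limit of Dixon's test for 6 values; chance alone flags about 1 group in 20. RRAGC was 68.0 CPM in replicate 1 and 60.2 to 62.0 CPM in the others. ESR1 was 0.141 CPM in replicate 4 and 0 to 0.0515 CPM in the others, values that stand on 6 counts in all. In replicate 6, the matrix proteoglycan gene AGRN was 537 CPM against 842 to 1011 CPM elsewhere, the stress-induced mTORC1 inhibitor gene DDIT4 was 128 CPM against 177 to 202 CPM, and the elongation factor gene EEF2 was 1213 CPM against 1574 to 1700.2 CPM. The fibronectin gene FN1 was 1111 CPM in replicate 2 and 684 to 835 CPM in the others. LARP1 was 453 CPM in replicate 5 and 412 to 427 CPM in the others. Of the 7, 3 fell in replicate 6, the library that stood apart on all genes.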

How the results depend on the processing

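List counts held under the alternatives tried, and the 351 recomputed counts stayed within 1.5 times the main count. Of the recomputed mean levels of 86 genes, 914 stayed within 1 SD and 32 did not. All 32 came from the D1103 libraries alone. Leaving out 1 library, or using the D1221 libraries alone, can hardly move a mean by 1 SD of the same 6 values. For those settings the rule could not show a dependence. Under other normalization factors every recomputed mean stayed within 1 SD. The share of counts in the 10 most abundant genes was 5.80%, with 6.65% in D1103 alone and 4.07% without genes of the mitochondrial genome; for the 100 most abundant it was 17.97%, 19.2% and 14.7%. Exon lengths from the comprehensive annotation, chosen after seeing the data, left 21 of the 30 highest genes shared between the CPM and per-kilobase orders, as the basic set did.

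The test between code series depended on the processing. Against 353 higher and 307 lower genes in D1221, no filter on low counts gave 1267 and 1996, DESeq2 1039 and 1062, limma-voom 515 and 474, an adjusted p under 0.01 gave 16 and 13, and a minimum fold of 1.5 gave 113 and 142. RLE factors gave 353 and 319 and upper-quartile factors 414 and 385. Leaving out 1 library gave 14 to 1779 higher and 10 to 2035 lower genes, the highest counts being those without replicate 6 and the lowest those without replicate 1; the cause was not tested. No paired analysis was possible because only 1 group is described. Genes with counts under 3 per library, 0.0706 to 0.157 CPM, could not be told from 0.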

Other observations

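The long non-coding RNAs with the highest levels, chosen after their values were seen, were NORAD, which binds Pumilio proteins, at 417, 485 and 509 CPM (lowest, median and highest of the 6 libraries), NEAT1, the scaffold of paraspeckles, at 319.9, 448 and 516 CPM, and SNHG29 at 247, 274 and 289.5 CPM. TUG1 had 176 ± 22.8 CPM, FGD5-AS1 173 ± 7.09 CPM and MIR100HG, the host of a microRNA cluster, 164 ± 9.95 CPM. All 6 lay above the 33.7 CPM median of genes at 1 CPM or more, and NEAT1 had the widest range.

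Among the 10 genes with a mean of 5 CPM or more and the largest CV over the 6 libraries were EIF5AL1, SPNS2, CST1, MUC1, DMBT1, CREB3L3, COL6A1, MTCO3P12 and HNRNPA1L3, with CVs of 54.6% to 77.8%. DMBT1, a secreted mucosal glycoprotein gene, had 7.82 and 8.89 CPM in D1103 and 34.9, 32.8, 40.6 and 49.7 CPM in D1221. The mucin gene MUC1 ran the other way, with 15.8 and 16.3 CPM against 7.82, 6.14, 5.32 and 3.96 CPM. SPNS2, a sphingosine-1-phosphate exporter gene, and CST1 were highest in replicate 2 alone, at 32.2 and 17.8 CPM. EIF5AL1, MTCO3P12 and HNRNPA1L3 are near copies of other genes, and how reads that fit both copies were counted is not stated, so their levels are uncertain.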
